A study of Nasonia vitripennis with 6 samples.

Results

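Embryos of the parasitoid wasp Nasonia vitripennis whose mothers had received double-stranded RNA (dsRNA) against the Toll receptor gene Nv-TollA were compared with embryos of water-injected mothers. The comparison used 4 of the 6 RNA-seq libraries of the series, 2 of Toll pRNAi and 2 of water, chosen by the treatment given in the sample labels. In parental RNA interference (pRNAi), dsRNA enters female pupae, here yellow pupae given about 2 μg, and gene expression is measured in their offspring. Water embryos came from pupae injected with water alone. The other 2 libraries, BMP pRNAi, were 1 pool after dsRNA against Nv-dpp and 1 after dsRNA against Nv-gbb, treated by the study as replicates. They entered the same model, where they add to the estimate of the spread, and their levels are given where they help place a gene. All embryos were 4 to 7 h old, which the labels call late blastoderm. By the study's methods this window runs from the last but 1 syncytial division to the start of gastrulation. Each pool therefore spans a range of stages. Each library came from a large pool of whole embryos, so fewer cells of a type and less RNA per cell cannot be told apart. Each of the Toll pRNAi libraries came, by the study's methods, from its own dsRNA fragment of Nv-TollA, and the water libraries were separate pools.

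Toll is a receptor on the surface of the insect egg cell. Its activation on the ventral side lets the transcription factor Dorsal enter the nuclei, and in the fly Drosophila the graded nuclear Dorsal turns on mesoderm genes at high levels and neuroectoderm genes at lower ones, and represses genes of the dorsal side. In Nasonia the dorsal side is patterned by BMP signaling, whose ligands counteract ventral fates. The question behind the comparison was which genes depend on Toll in the wasp, and in which direction.

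The libraries held 22754267 and 25841840 fragments for Toll pRNAi, and 22798464 and 28099195 fragments for water, assigned to 20033 loci. Levels are given as FPKM (fragments scaled to transcript length and library depth). Fold changes are log2 ratios of normalized fragment counts, Toll pRNAi over water, tested with edgeR's quasi-likelihood test, and a locus is called at a Benjamini-Hochberg adjusted p under 0.05 over the 10241 loci tested. Over 6581 loci above 3 FPKM in all of these libraries, the SD of the log2 ratio between the members of a pair was 0.13 for Toll pRNAi and 0.192 for water, and 2 and 17 loci differed by more than 2 times. The sample titles give the Toll pRNAi libraries other numbers than the water libraries, and the BMP pRNAi libraries carry the same numbers as the Toll pRNAi libraries. What the numbers mark is not given in the labels. In the BMP pRNAi libraries Nv-TollA was at 101 and 110 FPKM and the mesoderm gene Nv-twi at 87.8 and 79.0 FPKM. Both were far above their levels after Toll pRNAi, given below. Other called loci, such as Nasvi2EG006445 below, moved the same way after Toll and BMP pRNAi. Since the Toll pRNAi and water libraries share no number, what the numbers mark cannot be told apart from the treatment.

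The dsRNA target was strongly reduced in both Toll libraries. Nv-TollA (Nasvi2EG005329) spans 740147 to 745386 on scaffold 8 in assembly 1.0. Its levels were 4.92 and 1.23 FPKM in the Toll pRNAi libraries, against 101 and 128 FPKM in water. Both Toll libraries lay far below both water libraries, and replicate 1 kept more of the transcript, 4.29% of the water mean, than replicate 2, which kept 1.08%. On the log2 scale the change was -5.14 (standard error, SE, 0.49, adjusted p by edgeR = 0.0026). Without Toll pRNAi replicate 1 it was -6.37, and without replicate 2 it was -4.47. Nv-TollA was the largest fall among all called loci.

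Across all loci, 266 of the 10241 tested were higher after Toll pRNAi than in water and 105 were lower. This is 2.60% in the upward and 1.03% in the downward direction, 3.62% in all. In this fit there were more rises than falls, and the falls were deeper. The median rise was 1.39 times and the median fall 1.58 times. Only 9 of the 266 rises exceeded 2 times, against 34 of the 105 falls. Falls of more than 8 times numbered 9 and rises of that size 1. The loci that rose were also more strongly expressed, with a median of 42.0 FPKM in the higher group, against 11.5 FPKM for those that fell. Among loci with a water mean of 30 to 100 FPKM, 5.35% rose and 0.942% fell, while at 3 to 10 FPKM 1.07% rose and 1.73% fell. In all 371 called loci the Toll and water libraries did not overlap in FPKM, as was the case for 57.8% of the loci tested.

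**Figure D1:**
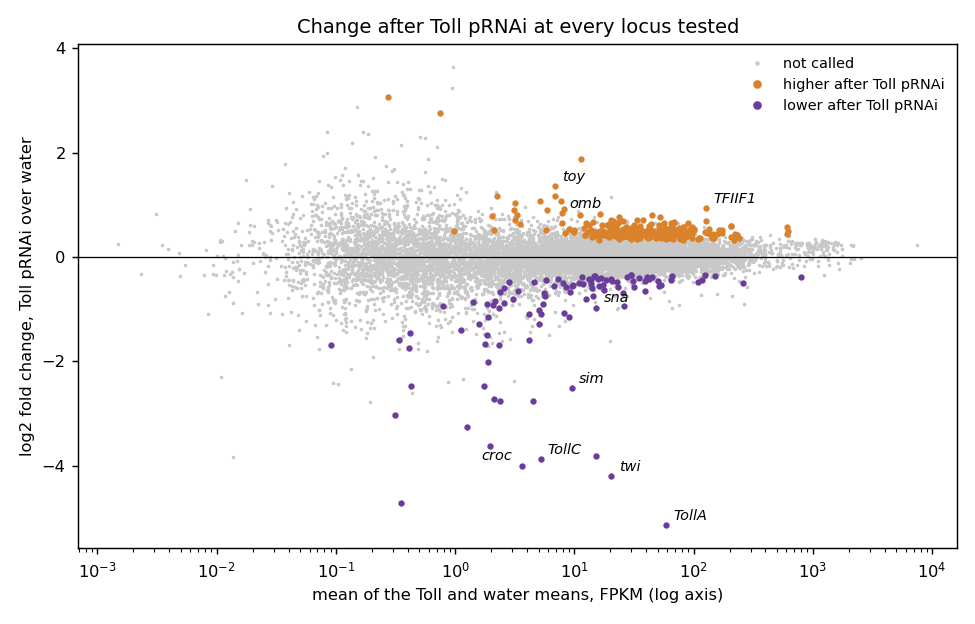
Each point is a locus tested. The x axis is the mean of the Toll pRNAi and water means in FPKM on a log axis, and the y axis is the log2 fold change, Toll pRNAi over water. The 266 higher loci form a dense band between 0.33 and about 1, and the 105 lower loci spread down to -5.14 for TollA.

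The counts moved strongly with the libraries included. With 1 Toll or water library left out, 3 to 8 loci were higher and 16 to 42 lower, and with DESeq2 in place of edgeR 459 were higher and 338 lower. The balance of rises and falls turned with the fit. Falls were the more numerous in all 4 fits without a Toll or water library, without a filter on low counts (533 higher, 705 lower), without BMP pRNAi replicate 2 (675 higher, 683 lower) and with limma at pseudocounts of 1 (7 higher, 20 lower) and 0.1 (3 higher, 19 lower). The genes twi, croc, TollC, six4, stumps, sim, CG42346, tenascin-major, inflated, toy, Nasvi2EG004500 and Nasvi2EG006445 were called under every alternative run. They were 12 of the 45 named loci called.

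The clearest response was in genes whose transcripts the study localized to the ventral side. Of 21 such genes, 19 could be paired with a locus, and 17 of the 19 were lower after Toll pRNAi, with a median log2 fold change of -2.02 against 0.02 over all loci tested and a background of 1.03% lower calls. The study chose these genes in part from the same libraries, so the count is not independent evidence of their direction. By FPKM, less than 20% of the water level was left in 10 of the 17, and more than 40% in 6. For tenascin-major, 1 of the 10, fragment counts fell less than FPKM, with log2 values of -2.02 and -2.49. The class is not the future mesoderm alone. The study placed croc, meteorin and neprilysin in ventral domains outside it, and TollC and CG2254 at its outer edges.

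The ventral transcription factors fell by very different amounts. Nv-twi (Nasvi2EG000292, scaffold 1, positions 2144511 to 2146437), the bHLH activator that starts the mesoderm program, had 2.93 and 1.33 FPKM after Toll pRNAi, against 40.3 and 37.0 FPKM in water. This was a change of -4.20 on the log2 scale (SE 0.26, adjusted p by edgeR = 2.7e-04), which left 5.51% of the water level. Nv-croc (scaffold 58, positions 15776 to 18750), a forkhead factor, fell as far, with 0.623 and 0.251 FPKM after Toll pRNAi and 6.79 and 6.77 FPKM in water. The homeobox gene Nv-six4, which acts in mesoderm subdivision in the fly, had 0.267 and 0.164 FPKM in the Toll libraries, against 2.32 and 2.28 FPKM in the water libraries. For Nv-zfh, a zinc finger homeodomain factor of fly mesoderm, 14.9% of the water level was left. All of these were called lower. Their Toll and water libraries did not overlap, as at every called locus and at 57.8% of the loci tested.

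Nv-sna was the exception among the mesoderm determinants in its total transcript level. The study describes its ventral domain as strongly affected by Toll knockdown. It proposes that high expression in yolk nuclei, which Toll pRNAi does not affect, likely made the total change small. The part of each domain in the total was not tested here. Nv-sna (Nasvi2EG019581, scaffold 110, positions 335971 to 401709) encodes the zinc finger repressor that keeps neuroectodermal genes out of the fly mesoderm. It had 11.2 and 9.20 FPKM after Toll pRNAi, against 20.2 and 20.3 FPKM in water, so that 50.3% of the level was left. This was a change of -0.97 on the log2 scale (SE 0.13, adjusted p by edgeR = 0.015), and the call was lost when any 1 Toll or water library was left out (edgeR adjusted p = 0.064 to 0.14). Nv-optix, a Six-family homeobox gene, had 9.41 and 9.36 FPKM after Toll pRNAi and 19.7 and 19.5 FPKM in water. Its fragment counts changed less than its FPKM, with log2 values of -0.64 and -1.07, and the test on fragments was not passed (edgeR adjusted p = 0.078).

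The FGF receptor and its adaptor fell together. Fly mesoderm cells spread over the ectoderm through the receptor Heartless and the intracellular protein Stumps that couples it to Ras signaling. Nv-htl had 1.43 and 0.853 FPKM after Toll pRNAi, against 8.09 and 7.69 FPKM in water, which is -2.76 on the log2 scale (SE 0.18, adjusted p by edgeR = 3.8e-04). Nv-stumps, whose locus also holds another gene identifier, had 0.553 and 0.596 FPKM in the Toll libraries and 3.75 and 3.57 FPKM in the water libraries, which is -2.72 on the log2 scale (SE 0.13, adjusted p by edgeR = 6.4e-05). The FGF ligand gene ths was not paired with a locus here.

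Genes for receptors, matrix and secreted proteins covered the whole range of falls. The receptor paralog Nv-TollC (Nasvi2EG005298, scaffold 8, positions 462480 to 467154) was at 0.919 and 0.398 FPKM after Toll pRNAi, against 10 and 9.46 FPKM in water, which is -3.88 on the log2 scale (SE 0.26, adjusted p by edgeR = 3.8e-04). Nv-TollC is a separate gene from the dsRNA target and lies on the same scaffold. How much of the fall could come from shared sequence with the dsRNA was not tested. Nv-CG42346, annotated as a membrane protein of cell adhesion, kept 7.51% of the water level, and tenascin-major, a teneurin of the cell surface, kept 17.8%. The guidance ligand netrin had 1.80 and 1.58 FPKM in the Toll libraries and 7.16 and 6.09 FPKM in the water libraries. The loci of CG42346, tenascin-major and netrin hold other gene identifiers as well, so their values may not belong to the named gene alone.

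The other called ventral genes kept more than 40% of the water level, sna among them. The integrin subunit gene inflated had 3.49 and 3.16 FPKM after Toll pRNAi, against 7.23 and 7.23 FPKM in water (log2 fold change -1.10, SE 0.09, adjusted p by edgeR = 0.001). For neprilysin, a metalloprotease that cleaves peptides, 45.2% was left, for the chloride channel gene tweety 51.5%, for CG2254, annotated as an enzyme, 57.8%, and for emp, a scavenger receptor of the CD36 family, 60.7%. All 4 were called lower, with no overlap between the groups, as at every called locus. By the study's account, inflated, CG2254 and htl are also expressed on the dorsal side, in the future serosa, an extraembryonic tissue. It states that genes with both ventral and dorsal expression show smaller changes after RNAi. The part of each domain in the total levels was not tested here. The level left differed among these genes, and htl kept only 14.4% of its water level. Meteorin, classed as a ligand gene by the study and without a fly ortholog in the study's annotation, had 1.35 and 1.5 FPKM after Toll pRNAi and 2.44 and 2.45 FPKM in water, which did not pass the test (log2 fold change -0.56, edgeR adjusted p = 0.11).

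The ankyrin domain gene Nasvi2EG004500, unique to Nasonia by the study's annotation, had one of the best measured falls. It had 2.17 and 1.82 FPKM after Toll pRNAi, against 28.2 and 28.4 FPKM in water, and its log2 fold change was -3.82 (SE 0.17, adjusted p by edgeR = 6.4e-05). Of the 10 ankyrin genes in the study's list it was the only one called lower, 2 were called higher and 7 did not pass, against 1.03% lower and 2.60% higher over all loci. The study selected these genes too in part on the same libraries.

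**Figure D2:**
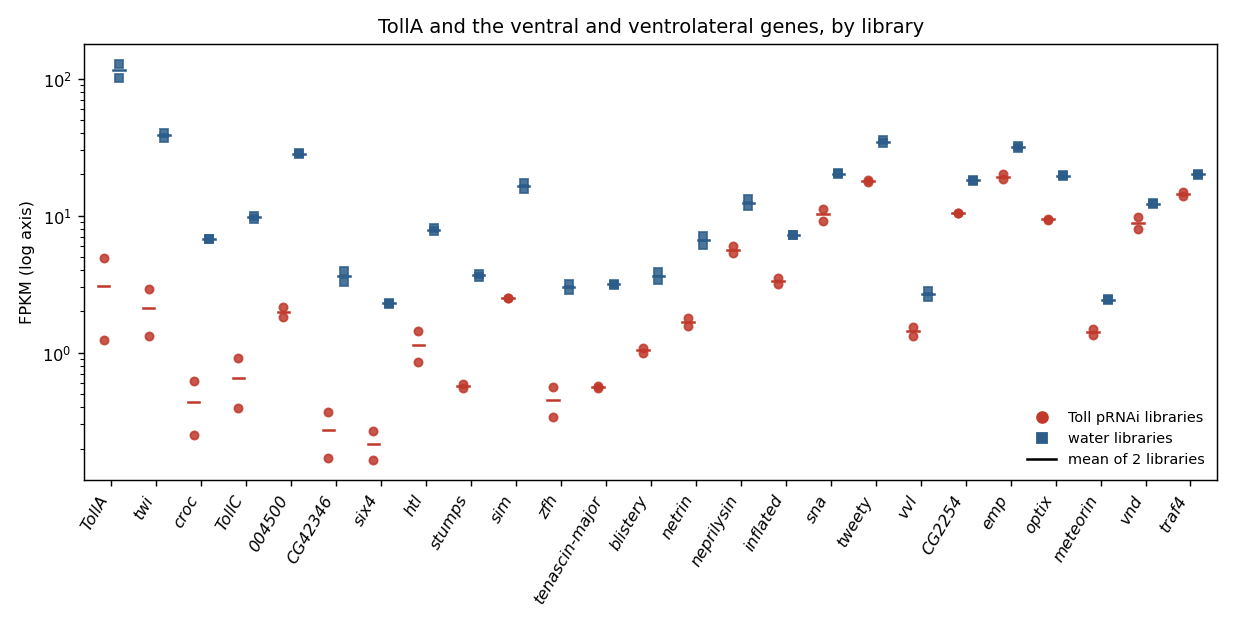
FPKM on a log axis in each Toll pRNAi library (circles) and each water library (squares) for TollA and the 24 ventral and ventrolateral genes paired with a locus, ordered by fold change, with the mean of each pair as a bar. Numbers on the x axis are the last digits of gene identifiers. In FPKM the Toll libraries lie below the water libraries for every gene drawn. Over all loci tested, 57.8% had no overlap, in either direction. TollA had 4.92 and 1.23 FPKM against 101 and 128 FPKM. For traf4 the levels were 13.9 and 14.9 FPKM against 19.9 and 20.2 FPKM, while its fragment counts gave a log2 fold change of -0.04.

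The ventrolateral genes do not all border the mesoderm, and their responses split within the class. The study placed sim and vvl in narrow stripes beside the mesoderm. It gave vnd, rhomboid, blistery and traf4 broader domains, and placed ind more laterally. Of 7 genes, 5 were paired and 3 were lower, against 1.03% of all loci tested, again in a list the study drew in part from these libraries. Nv-sim (Nasvi2EG014230, scaffold 42, positions 110996 to 135133), the bHLH-PAS master gene of the ventral midline, had 2.51 and 2.49 FPKM after Toll pRNAi, against 17.4 and 15.7 FPKM in water. This was a change of -2.52 on the log2 scale (SE 0.14, adjusted p by edgeR = 1.4e-04). The locus of the POU factor Nv-vvl had 1.55 and 1.32 FPKM in the Toll libraries and 2.83 and 2.57 FPKM in the water libraries (log2 fold change -0.93, edgeR adjusted p = 0.044). That of blistery, a tensin that links integrins to actin, had 1.09 and 0.988 FPKM after Toll pRNAi and 3.88 and 3.37 FPKM in water (log2 fold change -1.68, edgeR adjusted p = 0.015). Both loci hold another gene identifier as well, and without such loci 1 ventrolateral gene was called, which was Nv-sim.

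Nv-vnd, the homeobox gene of the medial neuroectoderm column, had 9.76 and 7.98 FPKM after Toll pRNAi, against 12.3 and 12.1 FPKM in water. The libraries did not overlap, but the log2 fold change of -0.37 (SE 0.17) did not pass (edgeR adjusted p = 0.23). The locus of traf4, a signaling adaptor, had 13.9 and 14.9 FPKM after Toll pRNAi and 19.9 and 20.2 FPKM in water, while its fragment counts gave a log2 fold change of -0.04. Over the 102 listed loci the FPKM ratio and the fragment ratio differed by more than 0.3 on the log2 scale at 5 loci, which were traf4, optix, tenascin-major, netrin and CG42249. The genes ind and rhomboid of this class were not paired with a locus here.

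Genes expressed around the sides of the embryo had mostly small positive changes, and few passed the test. Among the 25 broad lateral and mesoderm-repressed genes, which the study localized to the lateral ectoderm or found excluded from the mesoderm, 5 were higher, 1 was lower and 19 did not pass, with a median log2 fold change of 0.34. The background of higher calls was 2.60%, and the study selected this list too. The largest rise was that of TFIIF1 (Nasvi2EG006076, scaffold 9, positions 3217270 to 3250118), a subunit of the general transcription factor TFIIF. It had 161 and 170 FPKM after Toll pRNAi, against 86.0 and 89.6 FPKM in water, which is 0.93 on the log2 scale (SE 0.08, adjusted p by edgeR = 0.0013). Nasvi2EG004843, specific to Hymenoptera by the study's annotation, had 16.0 and 12.1 FPKM in the Toll libraries and 7.64 and 8.49 FPKM in the water libraries. The insect gene Nasvi2EG019897 and the ankyrin genes Nasvi2EG006715 and Nasvi2EG001594 rose by 1.39, 1.47 and 1.53 times.

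The lower one was Nv-CG42249, annotated as an enzyme. Its locus, which holds another identifier too, had 0.512 and 0.3 FPKM after Toll pRNAi, against 4.88 and 3.85 FPKM in water (log2 fold change -2.76, SE 0.33, adjusted p by edgeR = 0.0099). The values rest on 11 and 6 fragments in the Toll libraries and 60 and 63 in the water libraries. It was the only broad lateral gene beyond 2 times in either direction that passed. The neural gene SoxN, a Sox-family factor, had 80.5 and 65.9 FPKM after Toll pRNAi and 50.7 and 48.8 FPKM in water, which came close to the threshold (log2 fold change 0.58, edgeR adjusted p = 0.055) at a locus of 4 identifiers. The 3 mesoderm-repressed genes are stardust, the partner of the apical polarity protein Crumbs, echinus and the integrin subunit gene mew. They had log2 fold changes of 0.29, 0.42 and 0.27, and none passed (edgeR adjusted p = 0.13, 0.061 and 0.19).

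**Figure D3:**
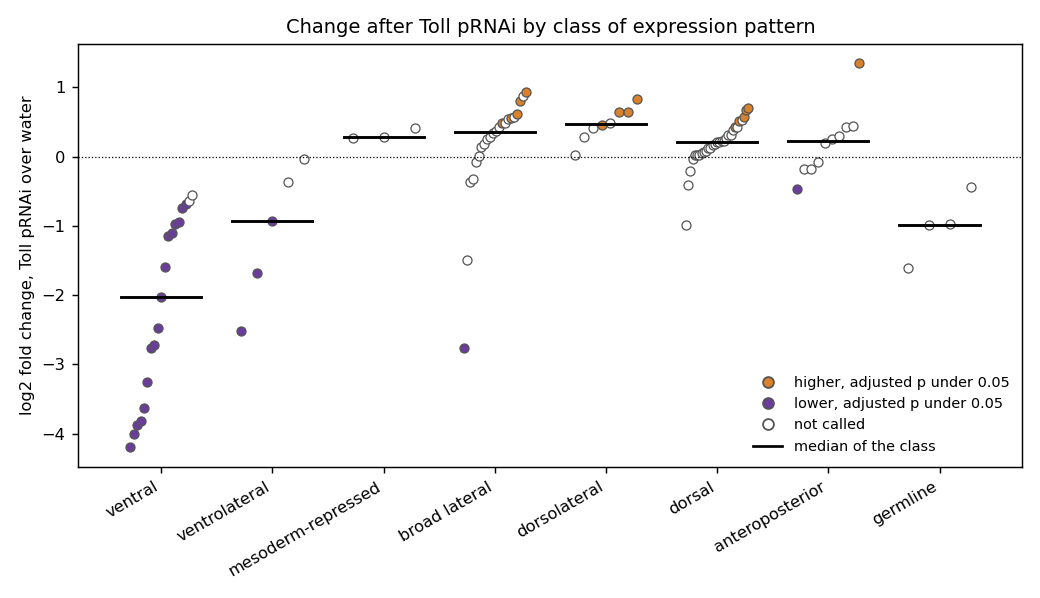
Log2 fold change, Toll pRNAi over water, of every listed gene that was tested, by the class of expression pattern the study assigned, with the class median as a bar and called genes filled. The ventral median is -2.02 and the dorsolateral median 0.47, and 2 genes labelled complex are not drawn.

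Dorsal genes had small changes, all of those called being rises. Of 39 dorsal and dorsolateral genes, 37 were paired, 9 were higher, none was lower and 28 did not pass, with a median log2 fold change of 0.23. Over all loci tested 2.60% were higher and 1.03% lower, and the study selected these genes in part on the same libraries. The dorsolateral genes made up 4 of the 9 calls with only 8 members, and their median was 0.47. Nv-omb (Nasvi2EG009552, scaffold 18, positions 2061061 to 2130281), a T-box gene that responds to BMP signaling in the fly, had 9.83 and 9.70 FPKM after Toll pRNAi, against 6.20 and 5.56 FPKM in water. Its log2 fold change of 0.84 (SE 0.10, adjusted p by edgeR = 0.0084) was the largest in these classes. Nv-msh, the homeobox gene of the lateral neuroectoderm column, had 15.9 and 14.8 FPKM in the Toll libraries and 10.1 and 9.56 FPKM in the water libraries. The zinc finger gene Nv-disco, at a locus of 2 identifiers, and Nv-CG14692 rose by 1.57 and 1.37 times.

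Among the dorsal genes that rose, roles were mixed. The ESCRT-III gene shrub, which acts in membrane sorting, had 49.8 and 43.1 FPKM after Toll pRNAi, against 28.5 and 29.0 FPKM in water. The mitotic inhibitor kinase gene wee1 had 24.5 and 28.2 FPKM in the Toll libraries and 15.5 and 17.8 FPKM in the water libraries. The T-box gene Nv-Doc, a determinant of extraembryonic tissue in the fly, rose by 1.43 times (edgeR adjusted p = 0.033). Nv-tsg2, a secreted modulator of BMP ligands, rose by 1.49 times, with 78.7 and 79.5 FPKM after Toll pRNAi and 53.4 and 53.9 FPKM in water. The gene Nasvi2EG009559, of unknown function, rose by 1.35 times.

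Other dorsal regulators did not pass the test. Nv-zen, the extraembryonic homeobox gene, had 37.2 and 31.6 FPKM after Toll pRNAi and 28.9 and 31.1 FPKM in water (log2 fold change 0.21, SE 0.12, adjusted p by edgeR = 0.33). The GATA factor gene Nv-pnr had 7.14 and 7.88 FPKM in the Toll libraries and 7.14 and 5.95 FPKM in the water libraries (log2 fold change 0.28, edgeR adjusted p = 0.19). The LIM-homeobox gene Nv-tup was at 3.19 and 3.53 FPKM after Toll pRNAi and 3.66 and 3.63 FPKM in water. For Nv-zen and Nv-pnr the lowest Toll library was level with, or barely above, the highest water library, and Nv-tup had a log2 fold change of 0.02.

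**Figure D4:**
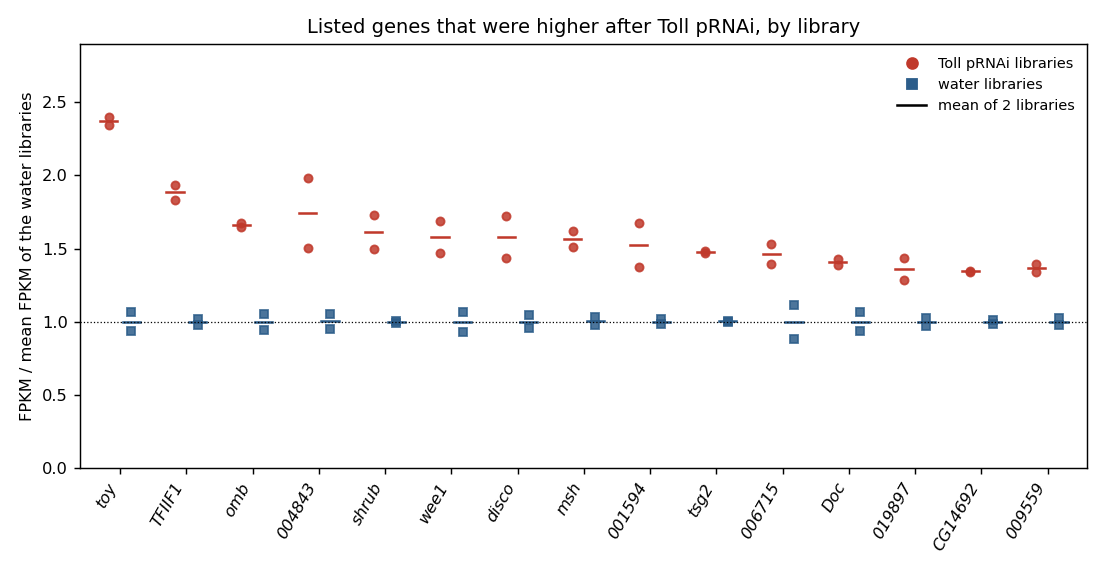
FPKM divided by the mean of the water libraries, in each Toll pRNAi library (circles) and water library (squares), for the 15 listed genes that were higher after Toll pRNAi, in the order of their fold change. Numbers on the x axis are the last digits of gene identifiers. The Toll libraries lie above the water libraries for all 15 genes, as at all 266 loci called higher. Of all loci tested, 57.8% had no overlap, in either direction. Fitted fold changes run from 1.35 for Nasvi2EG009559 to 2.54 for toy.

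Among BMP pathway genes, 1 rose and none fell. Of 12 genes of the pathway, 6 were paired, and only Nv-tsg2 was called. Over all loci tested 2.60% were higher and 1.03% lower. Most of the paired pathway genes are in the study's list, drawn in part from these libraries. The ligand gene Nv-dpp had 18.0 and 18.7 FPKM after Toll pRNAi, against 18.1 and 17.0 FPKM in water (log2 fold change 0.17, SE 0.17, adjusted p by edgeR = 0.58). The type II receptor gene punt had 15 and 14.3 FPKM in the Toll libraries and 13.2 and 12.9 FPKM in the water libraries. The membrane-bound modulator gene cv2 had a log2 fold change of 0.41 (edgeR adjusted p = 0.1) and the Smad gene mad2 one of 0.34 (edgeR adjusted p = 0.061). Of the 5 Notch pathway genes, sim and uif were paired, and uif differed by 0.03 on the log2 scale with an SE of 0.08. Of the 3 EGF pathway genes none was paired.

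A pair of head patterning genes was called among the 10 anteroposterior genes, 1 higher and 1 lower. Over all loci tested 2.60% were higher and 1.03% lower, and the study selected this list too in part on these libraries. Nv-toy (scaffold 55, positions 245128 to 272724), a Pax6 factor of the anterior head, had 9.80 and 9.56 FPKM after Toll pRNAi, against 4.34 and 3.82 FPKM in water. Its log2 fold change of 1.35 (SE 0.10, adjusted p by edgeR = 6.6e-04) was the largest rise of any listed gene. Nv-hbn, a homeobox gene of the head, went the other way, with 42.0 and 38.6 FPKM in the Toll libraries and 61.6 and 58.9 FPKM in the water libraries (log2 fold change -0.46, SE 0.08, adjusted p by edgeR = 0.031). The other 8, with tailless and both orthodenticle paralogs among them, did not pass, at log2 fold changes from -0.18 to 0.45.

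Markers of the germline had values below the water level, none of which passed. The study, with its own test, reported all 5 genes of this class as significantly reduced after Toll knockdown. It saw no clear effect on their levels when it compared wild-type and knockdown embryos. Of the 5, which the study selected in part on these libraries, 4 were paired here. All 4 had log2 fold changes below 0, with a median of -0.98. Of these, 3 had an unadjusted edgeR p under 0.05, as did 2357 of the 10241 loci tested, in either direction. After adjustment 0 passed in edgeR, against 1.03% lower over all loci tested. DESeq2 also called 0, but edgeR called 4 lower without a filter on low counts, 3 with only the Toll and water libraries in the fit, and 3 without BMP pRNAi replicate 1 or without replicate 2. For a heat shock protein gene, the locus of one of its paralogs (Nasvi2EG008141) had 9.81 and 9.74 FPKM after Toll pRNAi, against 18.2 and 41.7 FPKM in water. The metabolic gene gapdh had 16.2 and 14.0 FPKM in the Toll libraries and 20.2 and 40.4 FPKM in the water libraries. The water libraries differed among themselves for both genes, replicate 2 being the higher, and both Toll libraries lay below both of them. The germline gene orb was not paired with a locus here.

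A similar spread between the water libraries was seen at Nasvi2EG010608, of complex pattern, and Nasvi2EG029763, of the dorsal class. Nasvi2EG010608 had 0.839 and 1.11 FPKM after Toll pRNAi, against 9.28 and 1.24 FPKM in water. Nasvi2EG029763 had 12.9 and 17.9 FPKM after Toll pRNAi, and 48.8 and 12.4 FPKM in water. Here water replicate 1 was the high one, and neither gene passed (edgeR adjusted p = 0.15 and 0.41).

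Most changed loci lay outside the study's list, which was drawn by narrower rules. The study asked for a change above 1.5 times in at least 1 comparison and more than 3 FPKM in water. It then listed genes whose expression pattern it had seen in embryos. The calls here set no limit on fold or level. Of them, 46 rises and 38 falls were above 1.5 times with more than 3 FPKM in water. Of the 266 higher loci 15 were listed genes, and of the 105 lower loci 22 were. The pairing of loci with gene identifiers was held in part only, in a form that starts with loci that differed in the study's own test, and covered 68 of the higher loci, 49 of the lower loci and 1799 of all 20033 loci. Among loci above 3 FPKM in the higher group, the 10 deepest falls were Nv-TollA and 9 listed genes. Of the 10 largest rises, only Nv-toy and TFIIF1 were listed. The largest was that of Nasvi2EG006445 (scaffold 10, positions 1648207 to 1649063), at 18.0 and 18.0 FPKM after Toll pRNAi, against 4.77 and 5.06 FPKM in water (log2 fold change 1.88, SE 0.16, adjusted p by edgeR = 0.0013). Its level was 25.2 and 31.8 FPKM after BMP pRNAi. Nasvi2EG000412 had 9.02 and 9.89 FPKM in the Toll libraries, against 4.13 and 4.30 FPKM in the water libraries. After BMP pRNAi it had 8.80 and 14.7 FPKM, also higher than water (log2 fold change 1.43, edgeR adjusted p = 0.011). No role is given here for either gene.

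Orthologs of genes with localized expression along the fly dorsoventral axis form a list drawn from fly expression data rather than from these libraries, but only 32 of the 212 were paired with a locus. Since the pairing favors loci that differ, the counts below are not shares of all orthologs. Of 49 wasp orthologs of fly mesoderm genes, 7 were tested and 6 were lower, against 1.03% of all loci, which were twi, sna, htl, stumps, zfh and netrin, all of them listed genes. Of the ventral ectoderm orthologs 3 were tested and 1, sim, was lower. Of the ectoderm orthologs 4 were tested and 1, TFIIF1, was higher, against 2.60% of all loci. Of the 6 extraembryonic orthologs tested 1 was higher, which was Nasvi2EG009552. Of the orthologs of fly dorsal ectoderm genes, 7 loci were tested, of which 1 was higher and 1 lower. The higher one is again Nasvi2EG009552, the gene listed above as Nv-omb and matched in the fly list to the T-box gene Doc3 here and to its paralogs in the extraembryonic list. The lower one was the locus of LManV, an alpha-mannosidase gene, with 89.0 and 91.5 FPKM after Toll pRNAi, against 135 and 118 FPKM in water, at a locus of 3 identifiers.

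A few called loci lay next to each other. Among called loci paired with identifiers, 7 pairs were within 20000 bases of each other, and 6 of the 7 moved in the same direction. The pairing favors called loci, and no background was computed for this count. Beside Nv-twi, at a gap of 11602 bases, Nasvi2EG000293 had 1 and 2 fragments after Toll pRNAi, against 38 and 51 fragments in water. At equal depth this is 3.53% of the water level, with an exact 95% interval of 0.715 to 10.7% that covers counting error only. Beside Nv-TollC, at a gap of 55 bases, Nasvi2EG005296 had 5 and 3 fragments after Toll pRNAi, and 35 and 35 fragments in water (log2 fold change -3.02, SE 0.62, adjusted p by edgeR = 0.04). Both neighbors were singled out after their values were seen, and the library kit described does not mark strand, so reads of overlapping or adjoining transcripts cannot be told apart.

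The Toll pRNAi libraries differed from each other by a larger median at the loci with the deepest falls, a difference that was not tested. Among the 16 loci lower by more than 4 times, Toll replicate 1 was above Toll replicate 2 in 13, with a median log2 ratio of 0.56. The same loci had a median log2 ratio of 0.06 between the water libraries. At the other 89 lower loci, the median log2 ratio between the Toll libraries was -0.02. Replicate 1 was also the library with more Nv-TollA transcript left. The part of the remaining target transcript in these differences was not tested.

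**Figure D5:**
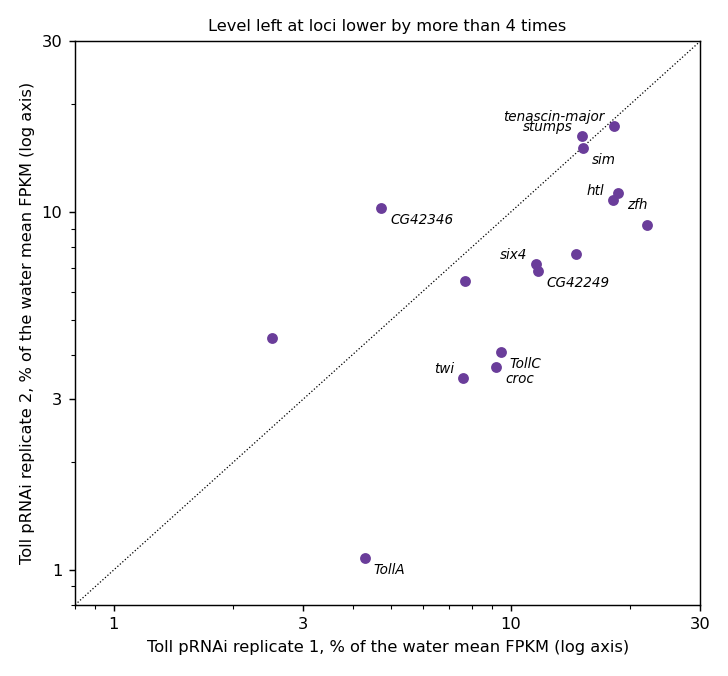
Level left at the 16 loci lower by more than 4 times, as a percentage of the water mean FPKM, in Toll pRNAi replicate 1 (x axis) and replicate 2 (y axis), both log axes, with a dotted line of equal levels. In 13 of the 16 replicate 1 was the higher, with TollA at 4.29% in replicate 1 and 1.08% in replicate 2, and twi at 7.58% and 3.43%.

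The BMP pRNAi levels place the ventral genes on both sides of the water level. Both contrasts share the water libraries, so their values are set side by side only. Nv-twi had a log2 fold change of -4.20 for Toll pRNAi over water and 1.07 for BMP pRNAi over water, and Nv-sna had -0.97 and 0.84. For Nv-croc the values were -4.00 and 0.17, and for Nasvi2EG004500 they were -3.82 and 0.10, neither BMP value passing the test (edgeR adjusted p = 0.59 and 0.67). For emp and neprilysin both contrasts were negative, and all 4 values passed the test. Those of emp were -0.69 for Toll pRNAi and -0.65 for BMP pRNAi (edgeR adjusted p = 0.0099 and 0.0051). Those of neprilysin were -1.15 and -0.74 (edgeR adjusted p = 0.0027 and 0.01). Tested directly, 17 of the 19 ventral genes had lower levels in the Toll than in the BMP pRNAi libraries, against 1.06% of all loci, and the 2 that did not pass were emp and neprilysin (edgeR adjusted p = 0.82 and 0.069). Of the 37 dorsal and dorsolateral genes, 35 were higher after Toll pRNAi than after BMP pRNAi, against 5.83% of all loci. The study selected both lists in part on these libraries.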

How the data were processed

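The study's methods describe poly-A selected, randomly primed, paired-end RNA-seq. The authors mapped reads with TopHat2 2.0.3 to assembly 1.0 with annotation 2.0, and Cufflinks 2.0.2 and Cuffdiff gave the deposited expected counts (fragments per locus) and the deposited FPKM. Replicate rows were matched to libraries by the order of the Cuffdiff command, with 0 rows unmatched. The deposited means per condition were not used. Gene identifiers and positions came from the name columns of a supplementary table held in part, which starts with loci that differed in the authors' test. Its fold changes and p-values were not used.

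Expected counts were rounded and fitted with edgeR 4.0.16 (quasi-likelihood, TMM, filterByExpr) in R 4.3.3 over all 6 libraries, and FPKM gave the levels. DESeq2 1.42.0 and limma 3.58.1 were alternatives. Other filters, scalings, pseudocounts of 1 and 0.1, a library-set block and leaving out libraries were also tried. The scripts were tested on simulated data. Named genes were all listed and pathway genes paired with a locus, called fly orthologs, and the 10 largest rises and falls above 3 FPKM without overlap. Members and lists were chosen with earlier results of these data known. With 2 pools per group, p-values measure the spread between these pools, taken over the Toll, water and BMP pRNAi pairs together. The SD of the log2 ratio between members was widest for the BMP pRNAi pair, 0.251, against 0.130 for Toll pRNAi and 0.192 for water. The BMP pRNAi pools differ in the target gene, so their spread holds that difference as well. In 198 loci the authors' estimate failed in at least 1 library.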

Additional observations from a re-analysis of the deposited data

How the results depend on the processing

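Loci higher and lower were 266 and 105. They numbered 459 and 338 with DESeq2, 533 and 705 without a filter on low counts, and 723 and 620 with only the Toll and water libraries in the fit. limma gave 7 and 20 at a pseudocount of 1, 3 and 19 at 0.1, and 49 and 29 without a filter. Leaving out 1 library gave 3 to 695 higher and 16 to 683 lower. The low ends came from leaving out a Toll or water library (22 to 50 calls in all), the high ends from leaving out a BMP pRNAi library.

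Ventral genes lower (17) numbered 11 with limma at a pseudocount of 0.1, 10 with limma without a filter, and 11 to 19 with 1 library left out. Ventrolateral genes lower (3) numbered 1 in each limma fit, 1 without loci of several identifiers, and 1 to 4 with 1 library left out. Lateral genes higher (5) numbered 9 with DESeq2, 10 without a filter, 16 with only the Toll and water libraries, 1, 0 and 1 with limma, and 1 to 15 with 1 library left out. Dorsal and dorsolateral genes higher (9) numbered 16 with only the Toll and water libraries, 0, 0 and 1 with limma, and 0 to 15 with 1 library left out. Germline genes lower (0) numbered 4 without a filter, 3 with only the Toll and water libraries, and 0 to 3 with 1 library left out. The log2 fold change of TollA was -6.37 to -4.47 with 1 library left out, and missed the threshold in limma at a pseudocount of 0.1 (-5.46, adjusted p = 0.081) and without a filter (-4.98, adjusted p = 0.061). No named gene that was called changed direction under the alternatives run, but the balance of rises and falls turned, as the counts above show. The cause of these shifts was not tested.

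A replicate block by library set, taken from the read-file names, was tried. Over 7276 loci the deviations of libraries of one set correlated at -0.0466 for Toll and water, -0.0886 for BMP and water and 0.127 for Toll and BMP, whose titles share numbers. The direct test of Toll against BMP pRNAi was run without a block. With the block, 393 loci were higher and 205 lower over all libraries, and 553 and 527 with only the Toll and water libraries. In these fits lateral genes higher numbered 8 and 12, dorsal and dorsolateral genes higher 10 and 14, and germline genes lower 1 and 2.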
